A study of Mus musculus with 6 samples.

Results

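The genes of the phagocyte NADPH oxidase were followed in cultured macrophages from Ube3a knockout mice and their controls. The 7 components were chosen by gene symbol: the membrane subunits Cybb and Cyba, the cytosolic subunits Ncf1 and Ncf4, the GTPases Rac1 and Rac2, and the proton channel Hvcn1. All 7 were found among the 16836 genes of the deposited table, and all 7 were among the 12118 genes that reached 1 CPM (the usual depth-scaled read count, here on the authors' scaled library sizes) in at least 3 libraries and were tested. The cells were bone marrow-derived macrophages, grown from precursors in marrow. The groups were UBE3A KO mice, written Ube3a-/- in the extraction notes (KO, 3 libraries), and their wild-type littermates (WT, 3 libraries), with no treatment named in the labels. The labels do not give the targeted exons of the allele, the strain, age or sex of the mice, the culture time, or whether libraries and animals correspond 1 to 1. Each p-value therefore reflects only how far these libraries spread, which may be technical.

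The oxidase makes superoxide for the killing of ingested microbes and for signalling. Cybb (gp91phox, or NOX2) carries electrons from NADPH in the cytosol across the membrane to oxygen, and Cyba (p22phox) is its partner in the flavocytochrome. In resting cells cytosolic subunits, among them Ncf1 (p47phox) and Ncf4 (p40phox), stand apart from the membrane pair. On activation Ncf1 is phosphorylated and docks on Cyba, Rac in its GTP-bound form helps to switch on electron transfer, and Ncf4 binds a phosphoinositide of the phagosome membrane. Hvcn1 lets protons follow the electrons, which keeps the membrane charge and the cytosolic pH in range.

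Depth was 25454862 to 35517269 reads per library. The targeted gene Ube3a fell by 1.47 on the log2 scale (limma adjusted p = 0.00444), from 177.6 to 207.1 CPM in WT to 61.2 to 77.0 CPM in KO, and was not absent. Macrophage markers were abundant, with the 9 genes looked for summing to 13767 to 16328 CPM in KO and 14942 to 15740 CPM in WT. Most of that sum was Lyz2 (8859 to 11216 CPM), which neutrophils also express. Csf1r, the receptor for the macrophage growth factor, stood at 1424 to 1584 CPM. Of 11 neutrophil markers, a cell type that also carries the oxidase, 10 were in the table, and their sum was 9.0 to 22.1 CPM in KO and 11.8 to 33.8 CPM in WT. Mmp8 gave the largest share of it (5.40 to 17.1 CPM), and Camp, Cxcr2, Elane and Prtn3 were at or under 0.512 CPM in every library. Of these 4, Camp and Elane were at 0 in KO replicate 1 and WT replicate 2, Cxcr2 in KO replicate 3, and Prtn3 in KO replicate 3 and WT replicate 2. In bulk RNA, fewer cells of a type and less RNA per cell cannot be told apart. The 4 monocyte markers looked for summed to 221.2 to 369.2 CPM in KO and 216.1 to 337.5 CPM in WT. Nearly all of that was Ccr2 (214.0 to 361.1 CPM). Erythroid and megakaryocyte markers summed to 70.6 to 107.2 CPM, nearly all of it Pf4. No marker of T and NK cells (5 looked for) or of eosinophils, mast cells and basophils (5 looked for) was listed in the table. B cell markers, looked for because B cells express Hvcn1, summed to 2.08 to 4.38 CPM. Replicate 2 of each genotype had almost no Xist (28 reads in KO, 14 in WT), while the remaining libraries had 30161 to 42232 reads.

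The promoters of Cybb, Cyba and Ncf1 are shown as the control regions of both membrane subunits and of 1 cytosolic subunit, the 3 of the 7 components for which RefSeq promoter windows on GRCm38.p6 were at hand. The 150 bases before the annotated RefSeq start are printed 5′ to 3′ on the gene's strand, all 3 on the minus strand of the genome. For Cybb this start (X: 9469324) differs from the GENCODE M21 gene end (X: 9487771). The Cybb window therefore lies inside the gene span given below. Capitals mark matches, on either strand, to an interferon regulatory factor pair (GAAANNGAAA) and to a CCAAT box (CCAAT). A fixed run of letters taken for PU.1 (GAGGAA), the myeloid factor encoded by Spi1, was also looked for. Shorter or other forms of a PU.1 site were not searched.

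Cybb, chrX:9469325-9469474: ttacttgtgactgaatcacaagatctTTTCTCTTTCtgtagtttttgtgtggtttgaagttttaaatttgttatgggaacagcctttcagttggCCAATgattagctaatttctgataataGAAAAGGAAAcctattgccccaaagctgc
Cyba, chr8:122432941-122433090: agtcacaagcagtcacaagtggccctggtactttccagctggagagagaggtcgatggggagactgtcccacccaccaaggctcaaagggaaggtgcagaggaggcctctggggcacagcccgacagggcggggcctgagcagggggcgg
Ncf1, chr5:134229626-134229775: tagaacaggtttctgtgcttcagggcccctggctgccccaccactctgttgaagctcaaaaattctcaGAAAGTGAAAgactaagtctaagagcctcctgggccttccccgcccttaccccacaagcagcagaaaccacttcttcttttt

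Cybb held the interferon regulatory factor pair at 2 places, 29 to 20 bases before the start on the gene's strand and 124 to 115 bases before it on the other strand. Ncf1 held it at 1 place, 82 to 73 bases before the start. Among 32851 promoter windows of the same length, 1.59% held at least 1 such pair. The CCAAT box of Cybb lay 56 to 52 bases before the start, and 24.5% of windows held one. The Cyba window held none of the 3 motifs, and none of the 3 windows held GAGGAA, which 14.5% of all windows did. Whether these windows hold a PU.1 site in other letters was not tested. A match describes the letters only.

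None of the 7 components passed the test between genotypes. The count of genes called at a Benjamini-Hochberg adjusted p under 0.05 (limma, two-sided) was 0 of 7, against 0.0165% of all tested genes. It was also 0 of 7 at an unadjusted limma p under 0.05, which 4.13% of tested genes reached, and 0 of 7 with limma-voom by either threshold. The ranges of KO and WT overlapped for every component, whereas 9.95% of tested genes had ranges that did not overlap. Of the 7, 3 had positive and 4 negative log2 fold changes (KO minus WT, on log2(CPM + 1)), with a median of −0.02, beside 50.4% positive and a median of 0.0015 over all tested genes. The 95% intervals differed in width. As KO level over WT level they were narrow for Rac1 (0.894 to 1.09), Ncf1 (0.873 to 1.09) and Ncf4 (0.878 to 1.11). They were wider for Rac2 (0.948 to 1.30), Cyba (0.878 to 1.32), Cybb (0.646 to 1.19) and Hvcn1 (0.835 to 1.79).

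**Figure D1:**
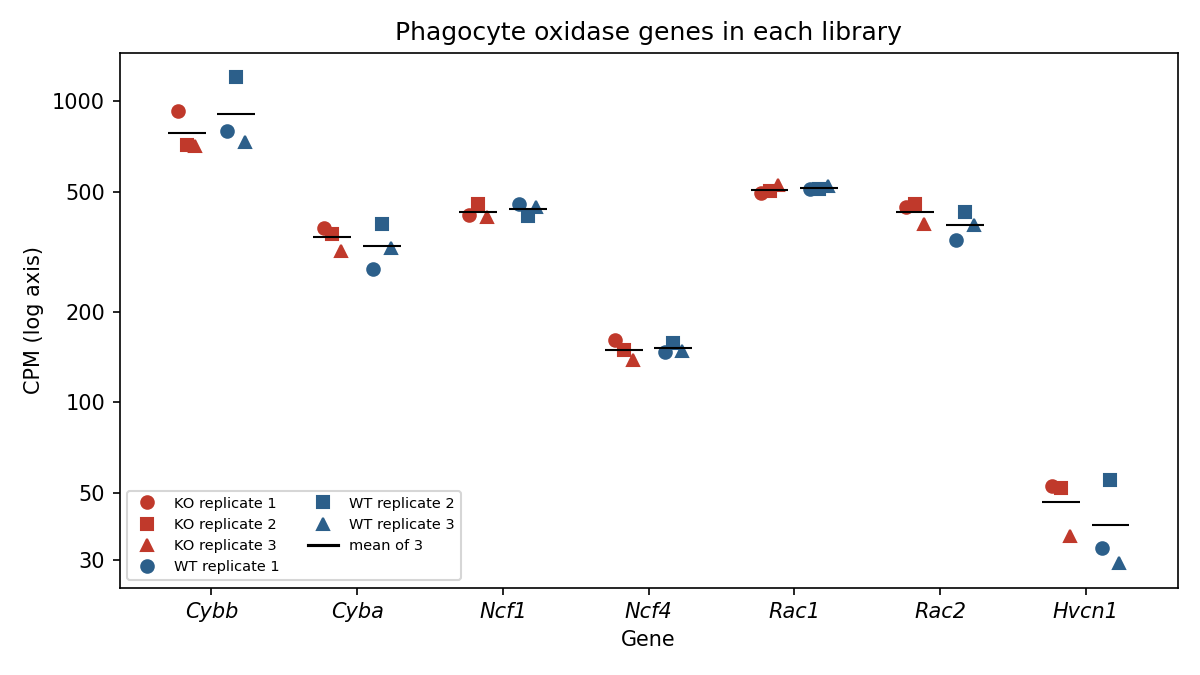
CPM (log axis) of the 7 components in each of the 6 libraries, red for KO and blue for WT, with the symbol giving the replicate number and the black line the mean of 3. KO and WT points interleave for every gene, and WT replicate 2 is the highest WT library for Cybb, Cyba, Ncf4, Rac2 and Hvcn1.

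Cybb, the electron-carrying subunit, was the most variable of the abundant components. In replicate order its CPM was 923.5, 713.5 and 708.9 in KO, then 794.3, 1198 and 730.5 in WT. WT replicate 2 was highest and KO replicate 1 next, while the other 4 libraries lay between 708.9 and 794.3, so the genotypes overlapped. The mean was 782.0 ± 122.6 CPM in KO and 907.6 ± 253.5 CPM in WT (SD, n = 3). The log2 fold change was −0.19 (95% interval −0.63 to 0.25; limma adjusted p = 0.879). The sign turned without WT replicate 2, the highest library, but not without KO replicate 1, the next highest. Without WT replicate 2 the log2 fold change was 0.03 (limma adjusted p = 0.945). Without KO replicate 1 it was −0.32 (limma adjusted p = 0.890). Without both WT replicate 2 and KO replicate 1 it was −0.10 (limma adjusted p = 0.718). Cybb (ENSMUSG00000015340) lies on the X chromosome (GRCm38, X: 9435252 to 9487771, minus strand). Of the libraries with almost no Xist, WT replicate 2 had the highest Cybb of all 6 and KO replicate 2 the second lowest.

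Cyba, whose product stabilises the Cybb protein, showed a narrower spread. It stood at 380.4, 362.5 and 316.8 CPM in KO and at 277.2, 389.5 and 324.6 CPM in WT, in replicate order. WT replicate 2 was again the highest library and KO replicate 1 the next, with WT replicate 1 the lowest. The mean was 353.2 ± 32.8 CPM in KO and 330.4 ± 56.4 CPM in WT (SD, n = 3), a log2 fold change of 0.11 (95% interval −0.19 to 0.40; limma adjusted p = 0.892). The log2 fold change was −0.01 without WT replicate 1 and 0.23 without WT replicate 2 (limma adjusted p = 0.9997 and 0.480). Cyba (ENSMUSG00000006519) lies at 8: 122424776 to 122432930 on the minus strand.

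The partners did not keep a fixed proportion. Cybb was 2.43, 1.97 and 2.24 times Cyba in CPM in KO and 2.87, 3.08 and 2.25 times in WT, by replicate. The mean ratio was 2.21 ± 0.231 in KO and 2.73 ± 0.429 in WT (SD, n = 3). KO replicate 1 lay above WT replicate 3, so the genotypes overlapped, and an exact two-sided permutation test gave p = 0.2, or 0.3 after Benjamini-Hochberg adjustment over the 2 ratios computed. Groups of 3 against 3 cannot go below p = 0.1 in this exact test.

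Ncf1, the organiser subunit that carries the phosphorylation signal, was nearly flat. Its CPM was 419.6, 455.0 and 411.5 in KO and 455.1, 414.3 and 446.2 in WT. Here WT replicate 2 was the lowest WT library, the reverse of its place in Cybb and Cyba. The mean was 428.7 ± 23.1 CPM in KO and 438.5 ± 21.5 CPM in WT (SD, n = 3), with a log2 fold change of −0.03 (95% interval −0.20 to 0.13; limma adjusted p = 0.928). It ran from −0.08 without KO replicate 2 to −0.0041 without KO replicate 3, and was −0.12 without both replicates 2 (limma adjusted p = 0.9998, 0.990 and 0.603). Ncf1 (ENSMUSG00000015950; 5: 134220053 to 134229625, minus strand) shares 408 bp of exon with Gtf2ird2 on the opposite strand, 11.1% of its exon length, and Gtf2ird2 stood at 7.49 to 11.0 CPM.

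Ncf4, the subunit that reads the phagosome lipid, stood at 160.7, 149.1 and 137.8 CPM in KO and at 147.5, 158.1 and 147.8 CPM in WT. KO held both the highest and the lowest library. The mean was 149.2 ± 11.4 CPM in KO and 151.1 ± 6.01 CPM in WT (SD, n = 3), and the log2 fold change was −0.02 (95% interval −0.19 to 0.15; limma adjusted p = 0.954). Its sign turned without KO replicate 3, at 0.04, and without WT replicate 2, at 0.01 (limma adjusted p = 0.893 and 0.962). Ncf4 (ENSMUSG00000071715) lies at 15: 78244801 to 78262580 on the plus strand.

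Rac1, the GTPase found in most cell types, was the steadiest component. Its CPM was 495.9, 502.6 and 526.0 in KO and 511.5, 511.4 and 523.0 in WT, so the highest library was 1.06 times the lowest. The mean was 508.1 ± 15.8 CPM in KO and 515.3 ± 6.69 CPM in WT (SD, n = 3), with a log2 fold change of −0.02 (95% interval −0.16 to 0.12; limma adjusted p = 0.947), and −0.05 to −0.0032 with each library left out in turn. Rac1 (ENSMUSG00000001847; 5: 143503634 to 143528036, minus strand) shares 2309 bp of exon, 51.4% of its exon length, with Daglb on the opposite strand. Daglb stood at 65.7 to 77.7 CPM. Whether counting used the strand was not stated, so reads in the shared stretch cannot be assigned to one of the genes.

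Rac2, the Rac of blood cells, had the smallest p of the 7. It stood at 444.0, 455.0 and 390.3 CPM in KO and at 345.5, 429.4 and 389.1 CPM in WT. KO replicates 1 and 2 were above every WT library, but KO replicate 3 lay below WT replicate 2. The mean was 429.8 ± 34.6 CPM in KO and 388.0 ± 42.0 CPM in WT (SD, n = 3), or 110.8% of WT, with a log2 fold change of 0.15 (95% interval −0.08 to 0.38; limma adjusted p = 0.866). Without WT replicate 1, the lowest library, it was 0.07, and without WT replicate 2 it was 0.23 (limma adjusted p = 0.9997 and 0.453). Rac2 (ENSMUSG00000033220) lies at 15: 78559167 to 78572783 on the minus strand. In CPM, Rac2 was 0.848 ± 0.0915 times Rac1 in KO and 0.753 ± 0.0825 times in WT (SD, n = 3; exact two-sided permutation test, p = 0.3, adjusted p = 0.3).

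Hvcn1, the voltage-gated proton channel, had the widest relative spread and the largest fold change of the 7. Its CPM was 52.8, 52.0 and 36.1 in KO and 32.9, 55.3 and 29.3 in WT. The libraries fell into a high set (KO replicates 1 and 2, WT replicate 2) and a low set (KO replicate 3, WT replicates 1 and 3), each with both genotypes. The mean was 46.9 ± 9.42 CPM in KO and 39.1 ± 14.1 CPM in WT (SD, n = 3), or 119.9% of WT. The log2 fold change was 0.29 (95% interval −0.26 to 0.84; limma adjusted p = 0.866), and it ran from 0.11 without WT replicate 3 to 0.56 without WT replicate 2, with 0.47 without KO replicate 3 (limma adjusted p = 0.960, 0.311 and 0.713). Hvcn1 (ENSMUSG00000064267; 5: 122206804 to 122242297, plus strand) shares 1574 bp, 44.2% of its exon length, with Tctn1 on the opposite strand, and Tctn1 stood at 12.4 to 16.0 CPM. Reads in that stretch cannot be assigned to one of the genes without the strand.

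**Figure D2:**
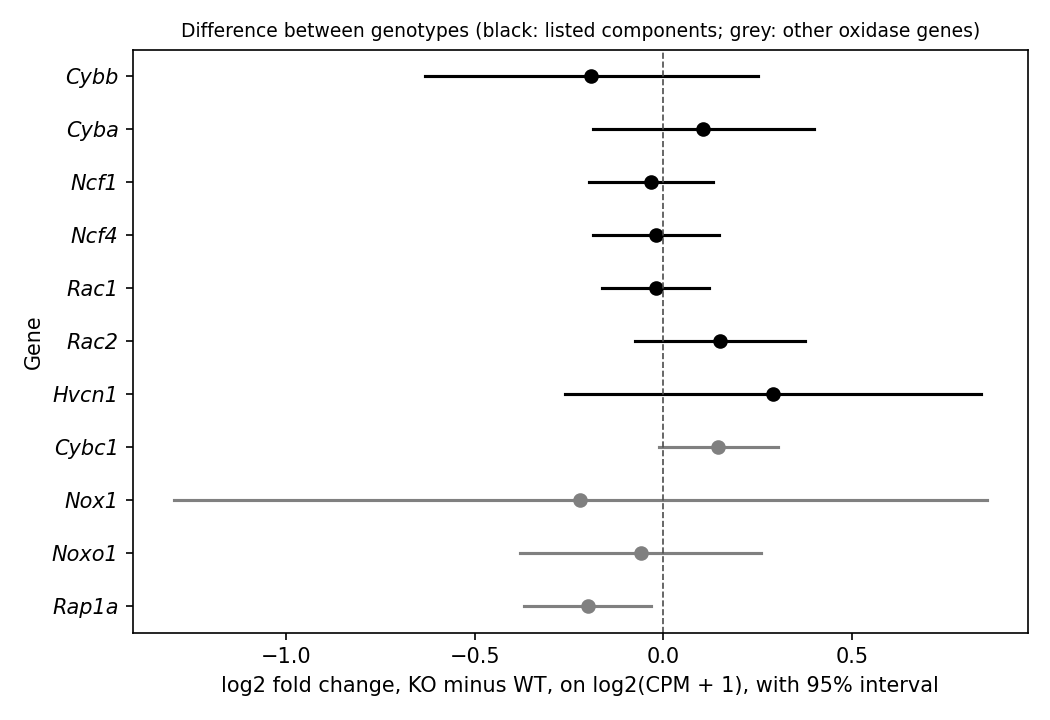
Log2 fold change (KO minus WT, on log2(CPM + 1)) with its 95% interval for the 7 components (black) and for the other oxidase genes tested (grey). The intervals of the 7 components all include 0, and those of Ncf1, Ncf4 and Rac1 are the narrowest of them.

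Exact two-sided permutation tests of the single-gene CPM values, 3 against 3, gave p from 0.2 (Rac2) to 1 (Ncf4). In the authors' deposited table the log2 fold changes of the 7 genes run from −0.19 (Cybb) to 0.31 (Hvcn1), with unadjusted p from 0.151 (Rac2) to 0.786 (Ncf4).

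For 6 of the 7 components the SD within genotype exceeded the size of the difference between genotypes, and for Rac2 the values were close (0.14 and 0.15, both on log2(CPM + 1)). The SD within genotype on log2(CPM + 1) was 0.40 for Hvcn1, 0.31 for Cybb, and 0.20 for Cyba. It was 0.09 for Ncf4, 0.07 for Ncf1 and 0.03 for Rac1, while the median over the 8791 tested genes with a mean of at least 10 CPM was 0.10 (quartiles 0.07 and 0.14). KO replicate 1 and WT replicate 2 were the 2 highest libraries for 4 of the 7 components (Cybb, Cyba, Ncf4 and Hvcn1), as they were for 12.8% of all tested genes. WT replicate 2 was the highest WT library for 5 of the 7, against 38.9% of all tested genes. Relative to each gene's mean over the 6 libraries, WT replicate 2 stood at 0.53 for Cybb, 0.40 for Hvcn1 and 0.20 for Cyba, but at −0.06 for Ncf1. The neutrophil marker sum was lowest in the same libraries, with 9.0 CPM for KO replicate 1, 11.8 CPM for WT replicate 2 and 19.9 to 33.8 CPM elsewhere, and its part in the oxidase values was not tested. All 6 neutrophil markers tested had negative log2 fold changes (median −0.35), 0 of them called by limma. Of the macrophage markers, 2 of 9 (Adgre1 and Cd14) also had KO replicate 1 and WT replicate 2 as their highest libraries. Of 4 progenitor markers, Kit, Myb and Gata2 were at or under 1.03 CPM in every library, and Cd34 alone was tested and not called by limma. Cd34 stood at 25.8, 24.5 and 34.0 CPM in KO and at 77.3, 28.9 and 74.1 CPM in WT, so WT replicate 2 lay within the KO range, and its part was not tested either. With KO replicate 1 and WT replicate 2 both left out, 0 of 7 components were called, and the log2 fold change of Cybb was −0.10 and that of Hvcn1 0.47 (limma adjusted p = 0.718 and 0.4997).

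**Figure D3:**
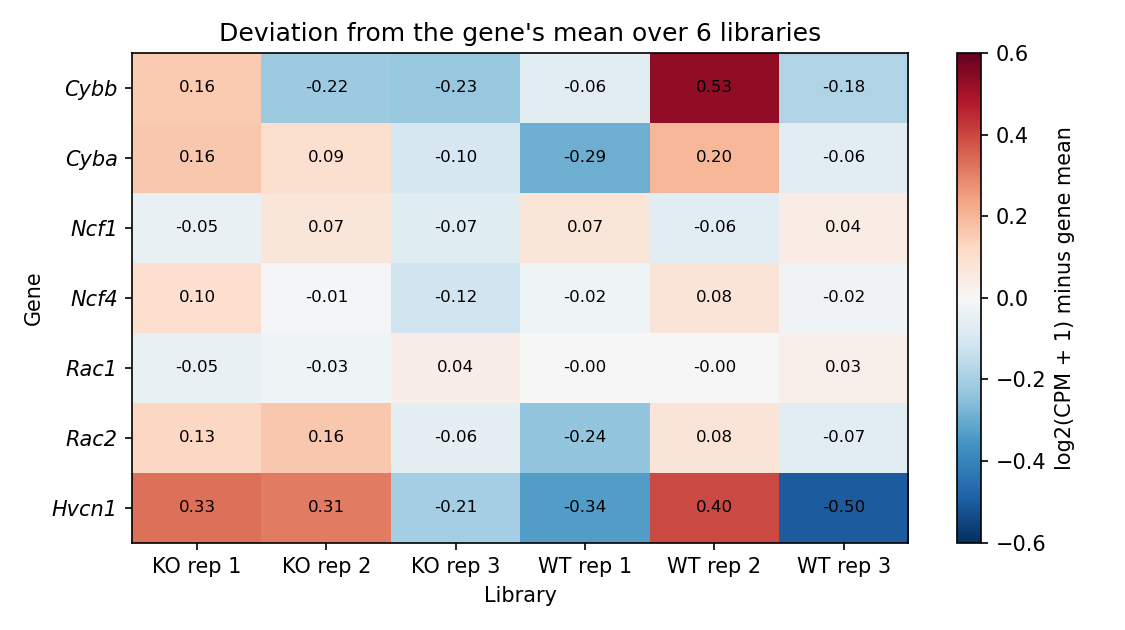
Deviation of each gene's log2(CPM + 1) from its own mean over 6 libraries, by library (columns) and gene (rows), red above and blue below the mean. WT replicate 2 is at 0.53 for Cybb and 0.40 for Hvcn1, while Rac1 lies between −0.05 and 0.04.

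Of the 21 pairs among the 7 components, Cyba and Rac2 had the smallest difference in their pattern over libraries. Their centred log2(CPM + 1) values differed by 0.06 as a root mean square over the 6 libraries, and 0.762% of 8790 genes were nearer to Cyba than Rac2 was. The pair was picked as the closest of the 21 in these same libraries, which favours a low share. The root mean square is small for any pair of genes that vary little. Ncf1 and Rac1, at 0.07, thus stood next without rising and falling together: Ncf1 was below its mean and Rac1 above it in KO replicate 3. Cybb and its membrane partner Cyba were farther apart, at 0.22, with 9.25% of genes nearer to Cybb. Rac1 and Rac2 stood at 0.16, with 81.1% of genes nearer to Rac1. Outside the oxidase, the nearest of 8784 genes by the same measure was Hgf for Cybb (0.07), Zbtb42 for Cyba (0.02), Tmem110 for Ncf1 (0.01), Gnl1 for Ncf4 (0.02), Rbsn for Rac1 (0.01), Mlf2 for Rac2 (0.01) and Syngr1 for Hvcn1 (0.06). All values come from the same 6 libraries and share their depth and scaling.

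Per length of transcript, Cyba was the most abundant component. On CPM per kb of annotated exon (GENCODE M21, union of exons), Cyba stood at 340.0 ± 31.5 in KO and 318.0 ± 54.3 in WT (SD, n = 3). Cybb followed at 134.6 ± 21.1 in KO and 156.3 ± 43.7 in WT, then Rac2 at 138.5 ± 11.2 and 125.0 ± 13.5. Ncf1 stood at 117.0 ± 6.31 and 119.7 ± 5.86 CPM per kb, and Rac1 at 113.0 ± 3.51 and 114.6 ± 1.49. These 4 levels overlapped between neighbours in the order over the 6 libraries, so Cybb, Rac2, Ncf1 and Rac1 were not separated step by step. Ncf4 stood below all of them, at 73.9 ± 5.66 in KO and 74.8 ± 2.98 CPM per kb in WT. Hvcn1 was the lowest, at 13.2 ± 2.64 in KO and 11.0 ± 3.95 CPM per kb in WT. The lengths include exon stretches shared with opposite-strand genes (51.4% for Rac1, 44.2% for Hvcn1, 11.1% for Ncf1). How reads there were counted was not stated, so the levels of these genes per kb are less certain. With the longest annotated transcript as the length, Ncf1 moved above Rac2 (150.5 against 134.6 CPM per kb over all libraries) and the other places were kept.

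**Figure D4:**
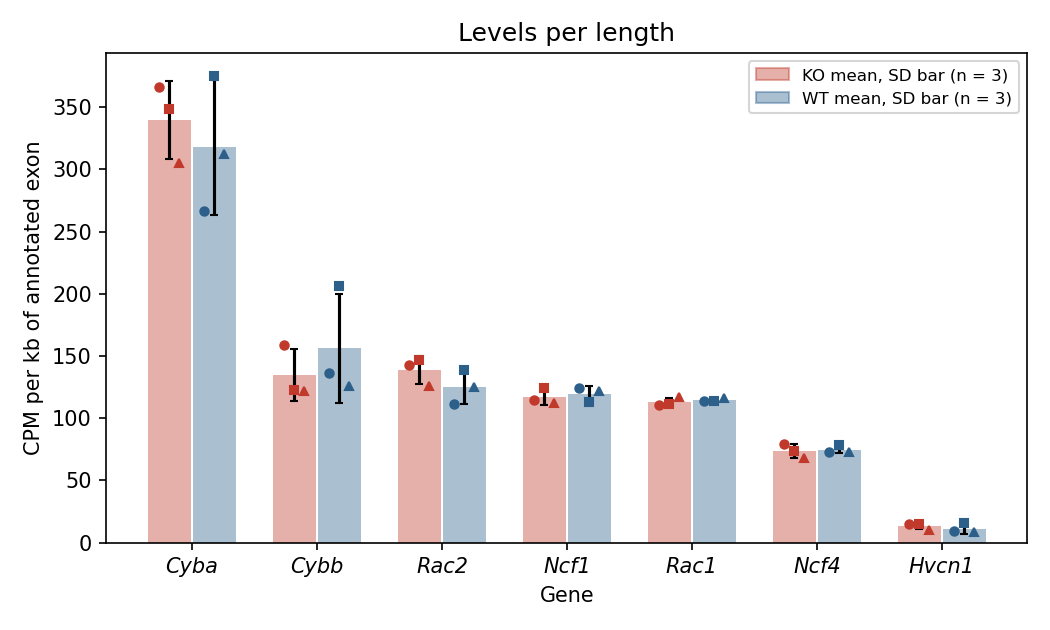
CPM per kb of annotated exon for each gene, ordered by its mean over the 6 libraries, with bars for the mean, error bars for the SD of 3 libraries, and points for single libraries (red KO, blue WT; circle, square and triangle for replicates 1, 2 and 3). Cyba is highest, at a mean of 329.0 CPM per kb, and Hvcn1 lowest, at 12.1.

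Other oxidase genes did not pass the test either. Of 11 looked for, 4 were in the table and tested, and 0 of the 4 were called by limma or by limma-voom. Rap1a, a small GTPase that copurifies with the flavocytochrome, stood at 70.6 ± 5.24 CPM in KO against 81.1 ± 3.46 CPM in WT (SD, n = 3). The highest KO library (75.7 CPM) was under the lowest WT library (79.0 CPM), but its log2 fold change of −0.20 (95% interval −0.37 to −0.03) did not pass over all genes (limma adjusted p = 0.866). Cybc1, the chaperone of the Cybb and Cyba pair in the endoplasmic reticulum, stood at 93.9 ± 2.97 CPM in KO against 84.9 ± 5.72 CPM in WT. Its lowest KO library, at 90.7 CPM, was just above the highest WT library, at 90.6 CPM, and the log2 fold change was 0.15 (95% interval −0.01 to 0.30; limma adjusted p = 0.866). Nox1, the oxidase of colon epithelium, was low and uneven, at 7.04, 1.16 and 4.59 CPM in KO and 3.33, 7.18 and 3.33 CPM in WT. Noxo1, its organiser, stood at 0.88 to 1.31 CPM over the 6 libraries.

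Genes that act around the oxidase passed in no list. Rac regulators (16 tested: exchange factors, GTPase-activating proteins, RhoGDI and relatives) had 0 called, 10 with positive values and a median of 0.02 (log2 fold change). Rac3, a further Rac, stood at 6.04 ± 1.28 CPM in KO against 4.14 ± 1.62 CPM in WT (a log2 difference of 0.48; limma adjusted p = 0.866), and Rhog, a relative of the Racs, at 175.6 ± 14.1 and 157.6 ± 11.1 CPM (0.15; limma adjusted p = 0.866). Kinases and lipid signals that act on the cytosolic subunits (14 tested) had 0 called, 8 positive and a median of 0.01. Pla2g4a, which releases arachidonic acid, had a log2 fold change of −0.13, and Pik3r4, a subunit of the kinase that makes the lipid bound by Ncf4, one of 0.11.

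Transcription factors reported to drive oxidase genes (9 tested) had 0 called, 7 positive and a median of 0.05. Spi1, which encodes PU.1, stood at 314.1, 320.8 and 263.4 CPM in KO and at 224.4, 274.8 and 271.4 CPM in WT. KO replicate 3 lay below WT replicates 2 and 3, and the log2 fold change was 0.22 (95% interval −0.03 to 0.47; limma adjusted p = 0.866). Irf8, an interferon regulatory factor of the myeloid lineage, stood at 165.5 ± 15.2 CPM in KO against 146.8 ± 15.1 CPM in WT (0.17; limma adjusted p = 0.866).

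Enzymes around the supply of NADPH, the fuel of the oxidase, had 0 of 10 called, 5 positive and a median of −0.02. Some of them, such as Rpe and Nadk, do not make NADPH themselves. Me1, the cytosolic malic enzyme, stood at 16.4 ± 1.17 CPM in KO against 22.8 ± 7.0 CPM in WT (log2 fold change −0.41; 95% interval −0.88 to 0.06; limma adjusted p = 0.866), with WT replicate 2, at 15.2 CPM, inside the KO range. Rpe, of the pentose phosphate pathway, had a log2 fold change of −0.20. Enzymes that use or remove superoxide and peroxide had 0 of 8 called, 3 positive and a median of −0.07. Sod2, the mitochondrial superoxide dismutase, stood at 84.3 ± 5.20 CPM in KO against 93.6 ± 5.10 CPM in WT, with all KO values (78.5 to 88.5 CPM) under all WT values (89.3 to 99.2 CPM) and a log2 fold change of −0.15 (limma adjusted p = 0.866). Gpx4, which reduces lipid peroxides, had a log2 fold change of 0.23 (limma adjusted p = 0.866). Over the 61 genes tested in these 6 lists, 1 gene, Rap1a, had an unadjusted limma p under 0.05, beside 4.13% of all tested genes. Limma-voom called 0 of the 61. The ranges of KO and WT did not overlap for Rap1a, Cybc1, Mapk14 and Sod2, beside 9.95% of all tested genes.

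**Figure D5:**
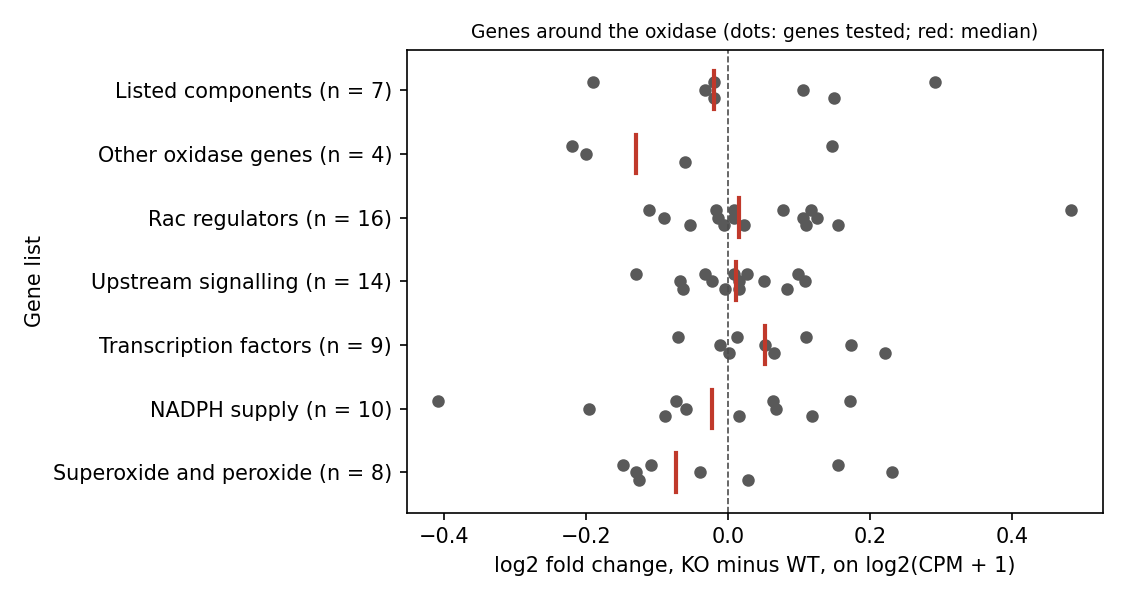
Log2 fold change (KO minus WT, on log2(CPM + 1)) of each tested gene (dots) in the 7 components and in the 6 lists around them, with the list median in red. Medians lie between −0.13 and 0.05, and no gene shown was called.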

How the data were processed

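RNA from 3 KO and 3 WT libraries was sequenced. Tools named in the submitters' processing notes are Cufflinks, FastQC 0.11.15, HTSeq 0.11.0, HISAT2 2.1.0 and Trimmomatic 0.36. What each was used for, the genome build, the annotation and the strand setting were not given in the sources used here. From these steps the authors deposited a table of log2 CPM values for 16836 genes, with a log2 fold change and an unadjusted p-value per gene. The decimal marks of these columns had been lost. They were restored by requiring whole reads for every gene in each library, and CPM was taken as reads over the authors' scaled library size, which was 0.982 to 1.02 times the reads. One read was worth 0.0277 to 0.0400 CPM.

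Genes with at least 1 CPM in 3 libraries (12118) were tested with limma 3.58.1 in R 4.3.3 on log2(CPM + 1), a pseudocount that understates changes of low genes, with genotype as the only term, a mean-variance trend and Benjamini-Hochberg adjustment at 0.05. The fit was tested on simulated data. Ratios and single genes were compared with exact permutation tests (scipy 1.17.1). Gene positions and exon lengths are from GENCODE M21 (GRCm38), matched by Ensembl ID. Named genes were the 7 components, Ube3a, from each list up to 4 called genes or else the 2 with the smallest unadjusted p, the gene most like each component, and markers beside a result. Genes named outside this rule, such as Nox1 and Noxo1, were chosen after their values were seen. The components and lists were chosen with earlier results of these data known, and some genes of these lists are not reported here. Alternatives covered pseudocount, filter, scaling, limma-voom, a replicate block, Xist level and libraries left out.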

Additional observations from a re-analysis of the deposited data

How the results depend on the processing

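None of the 7 components was called under any of the 17 alternatives, and the lowest limma adjusted p among their 119 values was 0.259, for Hvcn1 with both replicates 2 (the libraries with almost no Xist) left out. Of these 119 values, 113 kept their direction and 6 reversed. All 6 reversals came with libraries left out. The filters and the replicate block leave the log2 fold changes as they are and could not turn a sign, so the 113 are not separate checks. With both replicates 2 left out the log2 fold change was 0.0870 for Cybb and 0.0112 for Ncf4, and the median of the 7 components was 0.0870. Leaving out 1 library at a time gave −0.330 to 0.0266 for Cybb, −0.0137 to 0.231 for Cyba and −0.0748 to 0.0351 for Ncf4. The reversals in these ranges were Cybb without WT replicate 2 (0.0266), Cyba without WT replicate 1 (−0.0137), and Ncf4 without KO replicate 3 (0.0351) and without WT replicate 2 (0.0122). Over all genes, 2 were called, against 1 with no filter, 1 with a 5 CPM filter, 1 with limma-voom, 24 with both replicates 2 left out, 12 with KO replicate 1 and WT replicate 2 left out (an alternative chosen after seeing the data), and 1 to 8 with each library left out in turn (8 without WT replicate 2). The cause was not tested.

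With the replicate block 2 genes were called over all genes and 0 of the 7 components. Every replicate number holds both genotypes, so the block cannot move a log2 fold change, and Hvcn1 stayed at 0.29. Its standard error went from 0.24 to 0.14 (limma adjusted p = 0.927 with the block). Same-numbered libraries did not deviate together (correlations −0.22, −0.13 and 0.14), so the numbers were not taken as pairs. No depth limit applied to Cybb, with 22210 to 33871 reads per library, and Hvcn1 had 1027 to 1618.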
